A study of Mus musculus with 3 samples.

Results

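The genes described here encode enzymes, regulators and carriers of cholesterol and fatty acid synthesis in mouse melan-a cells. They were listed by symbol. Of 32 listed genes, 31 had a row among the 22698 Ensembl genes of the files. *Hmgcs1*, the cytosolic HMG-CoA synthase, was paired with no identifier in the gene table used and has no level here. RNA-seq was performed on 3 libraries of melan-a, an immortalized line of mouse melanocytes, which the study numbered 1, 3 and 4. The labels give the strain background as C57BL/6J and the source as mice that lack Ink4a-ARF. All 3 were untreated and grew in medium with 10% fetal bovine serum, 200 nM TPA (a phorbol ester that activates protein kinase C) and 200 pM cholera toxin (which raises cyclic AMP). The study calls the 3 bioreplicates, and nothing in the labels says whether they came from separate thaws or clones. With a single condition, no groups were compared.

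Cholesterol is built from acetyl-CoA through mevalonate, farnesyl diphosphate and squalene, and the first sterol, lanosterol, is then trimmed and reduced to cholesterol. SREBP transcription factors turn these genes on. SCAP carries the SREBP precursors from the endoplasmic reticulum to the Golgi, where proteases release the active part, and INSIG proteins hold SCAP back when sterols are plentiful. Fatty acids are made from the same acetyl-CoA by ACLY, ACC and fatty acid synthase, and stearoyl-CoA desaturases add a double bond. The membranes of melanosomes and dendrites are made of such lipids.

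Levels are FPKM, the reads on a gene relative to its length and to the size of the library, scaled between libraries by the authors and rounded to 2 decimals. Because FPKM is per length, levels of different genes are compared below on that scale. From low values that fall on whole reads, the scaled library sizes of replicates 1, 3 and 4 were estimated at 53900000, 47100000 and 66100000 reads. These sizes include the authors' scaling between libraries and are not counts of the reads each library holds. The smallest level called measurable was 3 reads, which for a gene of 1 kb is 0.0557, 0.0637 and 0.0454 FPKM in replicates 1, 3 and 4. This floor covers counting error only. As these are bulk samples, fewer cells that express a gene and less RNA per cell cannot be told apart. Of 9 melanocyte markers, 8 were above 10 FPKM in every replicate and their sum was 5779 to 6618 FPKM, with *Kit* at 0.59 to 0.78 FPKM the exception. Sums of the marker lists of other cell types were 0.9 to 1.74 FPKM for 6 macrophage genes, 0.11 to 0.21 for 6 adipocyte genes, 0.29 to 0.46 for 6 hepatocyte genes, 1.52 to 1.85 for 5 fibroblast genes and 0.36 to 0.7 for 4 keratinocyte genes. *Ptprc*, *Itgam*, *Lep*, *Cidec*, *Alb*, *Apob*, *Apoc3*, *Lum* and *Krt1* were at 0 in all 3. The highest gene of these lists was *Col1a1* (fibroblast), at 1.33 to 1.77 FPKM. It was followed by *Cd68* (macrophage) at 0.76 to 1.6, *Krt10* (keratinocyte) at 0.29 to 0.67 and *Cyp7a1* (hepatocyte) at 0.22 to 0.44 FPKM.

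Promoter sequence was searched for letters that many of these genes share. RefSeq promoter windows (GRCm38.p6, 250 bases before to 50 after a start) were at hand for 24 of the 32 genes, with no entry for *Fdps*, *Fdft1*, *Sqle*, *Stard4*, *Abcg1*, *Scd1*, *Scd2* and *Lpl*. The CCAAT letters of the NF-Y box, the site of a factor that works beside SREBP at many sterol genes, occurred on either strand in 19 of 24 genes (79.2%), against 41.1% of all 27025 genes with a window. At least 2 such boxes in a window were found for 10 of the 24 genes, against 13.3% of all genes. The GC box GGGCGG, a site of SP factors, was present in 20 of 24 against 38.2% of all genes. The 9 letters TCACNCCAC of the sterol regulatory element occurred in 1 of 24, *Hmgcs1*, and in 1.44% of all genes. The E-box CACGTG was present in 5 (*Hsd17b7*, *Dhcr7*, *Scap*, *Insig1* and *Abca1*) against 8.09% of all genes, and CATGTG, an E-box form that MITF also binds, in *Srebf1* alone against 15.9%. Genes with several starts have more windows to hold a match, and a match of letters is not a binding site. Only exact letters were searched, so a gene without a match may still hold another form of the site. Counted by window, CCAAT occurred in 20 of 34 windows of these genes, against 37.4% of all windows. The shares over all genes were not limited to genes expressed in these cells, so a trait of expressed genes in general cannot be told apart here.

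The 5 stretches below are the 250 bases before the start. The first 4 hold the most NF-Y boxes before the start among the mevalonate, sterol, regulator and fatty acid genes. The last is the only one with the exact letters TCACNCCAC. Capitals mark CCAAT or its reverse complement, CACGTG and TCACNCCAC. *Mvk* lies at chr5:114444019-114444268 on the plus strand, *Hsd17b7* at chr1:169969206-169969455 on the minus strand, *Insig2* at chr1:121332590-121332839 on the minus strand, *Fasn* at chr11:120824548-120824797 on the minus strand and *Hmgcs1* at chr13:119690101-119690350 on the plus strand.
Mvk: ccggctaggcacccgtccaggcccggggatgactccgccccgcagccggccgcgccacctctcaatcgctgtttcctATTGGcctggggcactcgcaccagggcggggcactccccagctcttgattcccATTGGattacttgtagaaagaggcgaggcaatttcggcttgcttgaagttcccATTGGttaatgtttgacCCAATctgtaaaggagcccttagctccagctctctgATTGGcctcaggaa
Hsd17b7: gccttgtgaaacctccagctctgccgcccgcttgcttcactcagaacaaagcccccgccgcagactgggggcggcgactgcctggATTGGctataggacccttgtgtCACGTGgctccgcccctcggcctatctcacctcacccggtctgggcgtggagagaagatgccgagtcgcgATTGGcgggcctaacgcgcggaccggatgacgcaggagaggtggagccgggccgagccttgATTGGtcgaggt
Insig2: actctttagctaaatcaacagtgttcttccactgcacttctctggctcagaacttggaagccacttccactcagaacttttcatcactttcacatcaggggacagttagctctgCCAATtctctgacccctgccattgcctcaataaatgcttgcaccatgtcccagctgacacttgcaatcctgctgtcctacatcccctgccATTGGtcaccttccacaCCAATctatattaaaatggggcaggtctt
Fasn: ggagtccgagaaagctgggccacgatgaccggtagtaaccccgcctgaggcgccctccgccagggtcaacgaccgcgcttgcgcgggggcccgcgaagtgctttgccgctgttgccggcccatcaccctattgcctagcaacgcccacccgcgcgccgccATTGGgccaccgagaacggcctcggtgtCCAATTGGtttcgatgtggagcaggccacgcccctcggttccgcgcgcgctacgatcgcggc
Hmgcs1: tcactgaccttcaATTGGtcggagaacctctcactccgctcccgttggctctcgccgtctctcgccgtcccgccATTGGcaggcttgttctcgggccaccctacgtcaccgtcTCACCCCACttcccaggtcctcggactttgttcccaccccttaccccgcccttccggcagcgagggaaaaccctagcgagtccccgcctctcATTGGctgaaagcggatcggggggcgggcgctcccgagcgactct

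*Mvk* carried 5 NF-Y boxes, and *Hsd17b7*, *Insig2*, *Fasn* and *Hmgcs1* carried 3 each in these 250 bases, of which those of *Fasn* at 62 and 59 bases from the start overlap. Over all upstream stretches of the 24 genes, the 36 boxes lay at a median of 61 bases from the start, against 104 bases for the 15907 boxes of all promoters. The share at 40 to 120 bases from the start was closer, with 47.2% of the 36 boxes against 41.5% of all. Boxes of the same gene are not independent of each other. *Acat2*, *Scap*, *Abca1*, *Acaca* and *Apoe* had no CCAAT in any of their windows. Among these 5 were genes at both ends of the range of levels, since *Apoe* had a mean of 125.2 FPKM and *Abca1* of 2.61 FPKM.

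Nearly the whole pathway was expressed. At or above 1 FPKM in every replicate were 29 of the 31 genes, against 44.1% of all genes of the files, and 22 were at or above 10 FPKM in every replicate, against 21.7% of all genes. Among the highest 10% of all genes by mean FPKM (10.0% by construction, from 30.1 FPKM up) were 18 of the 31, or 9 when only genes above 0 in every replicate were ranked. The median of the 31 means was 32.3 FPKM, against 0.28 for all genes and 11.2 for the 10011 genes at or above 1 FPKM in every replicate. *Abcg1* and *Lpl* were the 2 genes below 1 FPKM.

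**Figure D1:**
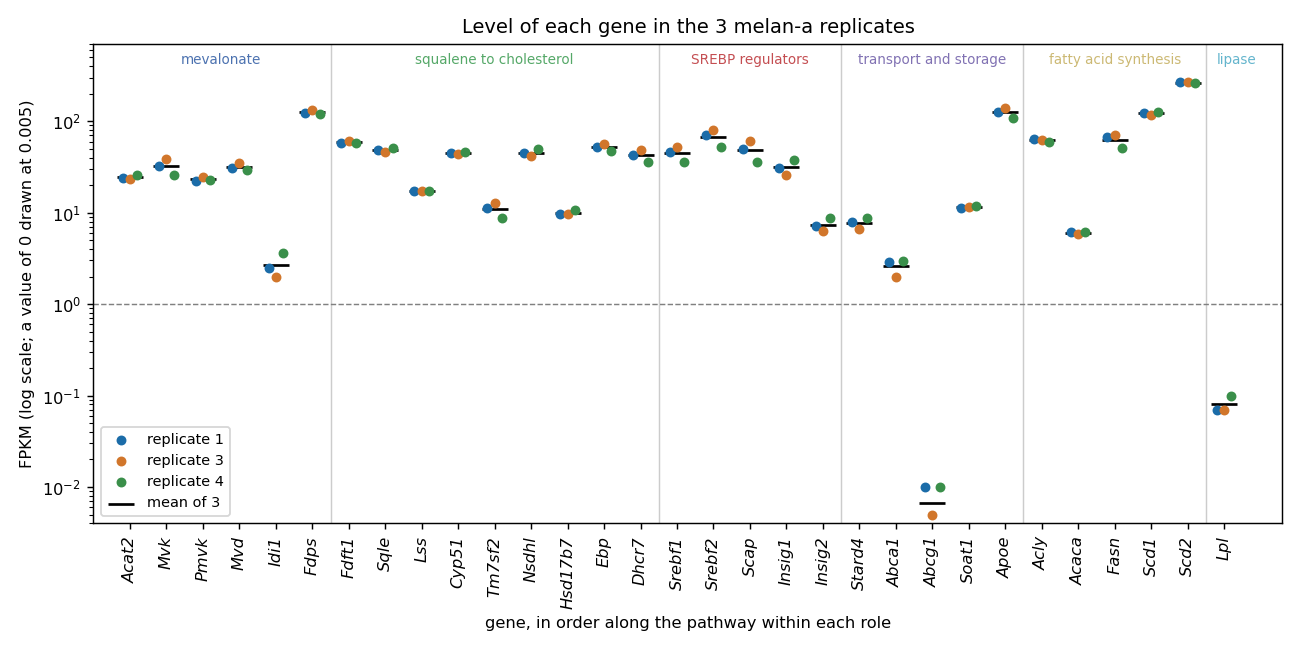
Each point is the FPKM of a gene (log axis) in replicate 1, 3 or 4, the bar is the mean of the 3, and genes stand in the order of the pathway within their role. The means run from 265 FPKM for *Scd2* down to 0.08 for *Lpl* and 0.01 for *Abcg1*, and *Idi1* at 2.68 stands below its neighbours *Mvd* at 31.6 and *Fdps* at 125.6. The dashed line is at 1 FPKM, and the value of 0 of *Abcg1* is drawn at 0.005.

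The mevalonate genes span from acetyl-CoA to farnesyl diphosphate, the branch point to sterols, prenyl groups and dolichol. Their median over 6 genes was 28 ± 1.98 FPKM (SD of the medians of 3 replicates). *Acat2*, the cytosolic thiolase that joins 2 acetyl-CoA, was at 23.91, 23.23 and 25.83 FPKM in replicates 1, 3 and 4. *Mvk*, mevalonate kinase, was at 32.39, 38.59 and 25.89 FPKM. The next kinase, *Pmvk*, was at 22.42, 24.58 and 22.71 FPKM. *Acat2* and *Pmvk* did not differ beyond their spread, and their order changed in replicate 3, while *Mvk* lay above both in all 3 replicates, though barely above *Acat2* in replicate 4. *Mvd*, the decarboxylase that yields isopentenyl diphosphate, was at 30.85, 35 and 28.95 FPKM. *Fdps*, farnesyl diphosphate synthase, was at 122.79, 133.9 and 120.13 FPKM, with a mean of 125.6 ± 7.3 (SD, n = 3) and rank 439 of 22698. *Fdps* was the highest of the mevalonate genes in all 3 replicates.

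*Idi1*, the isomerase that makes dimethylallyl diphosphate, was the low point of this segment, at 2.51, 1.96 and 3.58 FPKM, a mean of 2.68 ± 0.82 (SD, n = 3). The ratio of *Fdps* to *Idi1* was 48.9, 68.3 and 33.6 in replicates 1, 3 and 4. In mm9, *Idi1* (ENSMUSG00000058258) spans 8884852 to 8891641 of chromosome 13, plus strand. Of the 2621 windows of 50 bases within its exons, 84.4% also occurred letter for letter elsewhere in the genome, nearly all of them in the pseudogene *Gm13502* on chromosome 2, from 53553399 to 53555869. A read from such a window has more than 1 place of origin. How reads with several places were counted is not stated in the sources used here, so the level of *Idi1* is uncertain, and the part of these copies in it was not tested.

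The same count over the other genes set *Idi1* in context. For 14 of the 31 genes no exon window of 50 bases occurred elsewhere, for 10 at most 4.16% did, and for 7 more than 10% did. *Fdps* had copies of 65.5% of its windows, most of them in the pseudogene *Gm3571* on chromosome 10 (93241383 to 93242495). Those of *Acaca* reached 60.5%, all in 1 stretch of chromosome 12 (10158950 to 10167009) with no annotated gene. *Acat2* shared 42.2% with the neighbouring *Acat3* on chromosome 17, which was listed at 0.01, 0 and 0.01 FPKM. *Insig1* had copies of 33.1% on chromosome 3 (69767126 to 69769214) and *Fdft1* of 19.7% on chromosome 14 (19363978 to 19365475). The 10.2% of *Lpl* were spread over 38577 places, as interspersed repeats are. Of the genes with the largest shares of copies, *Fdps* was among the highest of the 31 genes and *Idi1* and *Acaca* were among the lowest. Whether copies changed the level of any gene was not tested. The levels of these 7 genes are uncertain for the same reason.

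**Figure D2:**
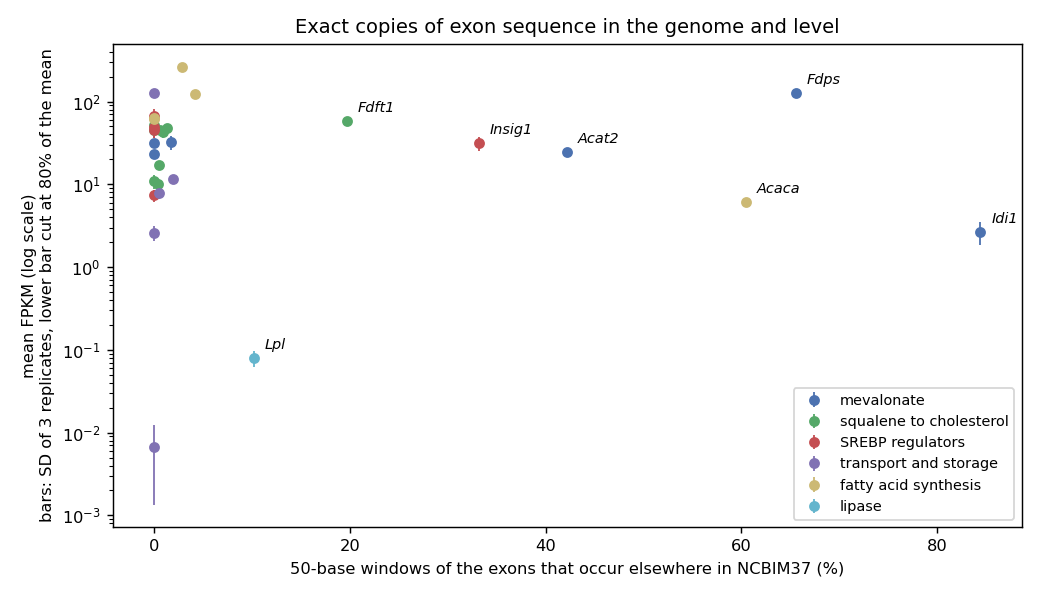
Each point is a gene, with the percentage of its 50-base exon windows that occur elsewhere in the mm9 genome on the x axis and its mean FPKM on a log y axis, with the SD of 3 replicates as bars. *Idi1* at 84.4% and 2.68 FPKM and *Fdps* at 65.5% and 125.6 FPKM are the genes with the largest shares and lie far apart in level. The lower bar is cut at 80% of the mean.

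Squalene to cholesterol is the part of the pathway that is committed to sterols, and its 9 listed enzymes were at 8.78 FPKM or more in every replicate, with a median of 45 ± 1.7 FPKM (SD of the medians of 3 replicates). *Fdft1*, squalene synthase, was at 58.22, 60.13 and 57.61 FPKM. *Sqle*, squalene epoxidase, was at 48.76, 45.87 and 50.6 FPKM. *Lss*, which closes the ring to lanosterol, was at 17.43, 17.1 and 17.39 FPKM, the smallest spread of the 31 genes relative to its mean (1.04%). The entry enzymes were thus steady between libraries, with *Lss* below *Fdft1* and *Sqle* in each. *Cyp51*, the lanosterol demethylase, was at 44.92, 43.3 and 46.67 FPKM. *Nsdhl*, a sterol dehydrogenase of the removal of methyl groups, was at 44.54, 41.53 and 49.88 FPKM. *Ebp*, the isomerase that moves a double bond of the sterol ring, was at 52.18, 56.01 and 47.61 FPKM. *Cyp51* and *Nsdhl* did not differ beyond their spread, as their means were 0.35 FPKM apart and their order changed between replicates. *Dhcr7*, which reduces 7-dehydrocholesterol in the last step of a branch of the route, was at 42.95, 48.6 and 36.04 FPKM.

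*Tm7sf2* and *Hsd17b7* were the low sterol enzymes. *Tm7sf2*, a sterol C14 reductase, was at 11.13, 12.67 and 8.78 FPKM. *Hsd17b7*, the ketoreductase that works with *Nsdhl*, was at 9.57, 9.59 and 10.81 FPKM. They could not be ordered, since *Hsd17b7* was the higher in replicate 4 only, and *Fdft1* stood above *Hsd17b7* by a ratio of 5.89 ± 0.5 (SD, n = 3). Exons of *1110014N23Rik* on the same strand overlap 15.3% of the exon bases of *Tm7sf2*, and exons of *Ctsb* on the opposite strand overlap 26.9% of those of *Fdft1*. Libraries were stranded, but whether counting used strand is not stated.

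Further sterol enzymes were expressed as well. *Msmo1* (listed under its older symbol *Sc4mol*), the methyl oxidase before *Nsdhl*, was at 99.34, 90.72 and 108.02 FPKM. *Sc5d*, the desaturase before *Dhcr7*, was at 27.37, 22.69 and 32.87 FPKM. *Msmo1* was above each of the 9 listed sterol enzymes in all 3 replicates, and *Sc5d* lay below *Dhcr7* in each. Of 47 other genes of lipid synthesis, transport and control, 36 were at or above 1 FPKM in every replicate and 26 at or above 10 FPKM, with a median of 12.8 FPKM.

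*Scd2* was the highest of the 31 genes, and the fatty acid genes had a median of 63 ± 5.92 FPKM (SD of the medians of 3 replicates). *Scd2*, a stearoyl-CoA desaturase, was at 266.48, 268.51 and 259.96 FPKM, a mean of 265 ± 4.47 (SD, n = 3) and rank 182 of 22698. *Scd1*, its paralog, was at 122.89, 117.17 and 126.49 FPKM. *Scd2* was above *Scd1* in all 3 replicates without overlap, by 2.17, 2.29 and 2.06 times. The mean log2 ratio was 1.12 ± 0.08 (SD, n = 3), larger than 2 SD. In the exact paired permutation test (two-sided), 3 pairs cannot go below p = 0.25, the value found here and for the other ratios of paralogs. Ratios of genes that are not paralogs were not tested. Together the desaturases made up 27% of the summed FPKM of the 31 genes. Of their exon windows, 4.16% for *Scd1* and 2.85% for *Scd2* occurred elsewhere, mostly in *Scd* paralogs, and *Scd3* and *Scd4* were at 0.05 to 0.07 and 0.14 to 0.2 FPKM. Both lie on chromosome 19 (mm9), *Scd2* (ENSMUSG00000025203) at 44368166 to 44381354 on the plus strand and *Scd1* (ENSMUSG00000037071) at 44468941 to 44482199 on the minus strand.

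Upstream of the desaturases, *Acly*, which splits citrate into the acetyl-CoA of the cytosol, was at 63.28, 62.37 and 59.26 FPKM. *Fasn*, fatty acid synthase, was at 67.64, 70.7 and 50.57 FPKM. *Acaca*, acetyl-CoA carboxylase, which makes the malonyl-CoA that FASN uses, was at 6.08, 5.92 and 6.21 FPKM. *Acly* and *Fasn* overlapped, and *Acaca* lay below both in every replicate, with a ratio of *Fasn* to *Acaca* of 11.1, 11.9 and 8.14. *Acaca* is the gene with copies of 60.5% of its exon windows on chromosome 12. Its paralog *Acacb*, the carboxylase of the mitochondrial surface, was at 0.6, 0.58 and 0.5 FPKM. *Acaca* was higher by 10.1, 10.2 and 12.4 times, a mean log2 ratio of 3.42 ± 0.16 (SD, n = 3), or 2.18 with a pseudocount of 1 FPKM in place of 0.01 FPKM. Among further genes of fatty acid synthesis, *Slc25a1*, the citrate carrier, was at 88.9 to 126.45 FPKM. *Fads2*, the fatty acid desaturase of polyunsaturated chains, was at 205.1 to 283.4 FPKM. *Elovl6*, an elongase of saturated chains, was at 3.65 to 6.75 FPKM.

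**Figure D3:**
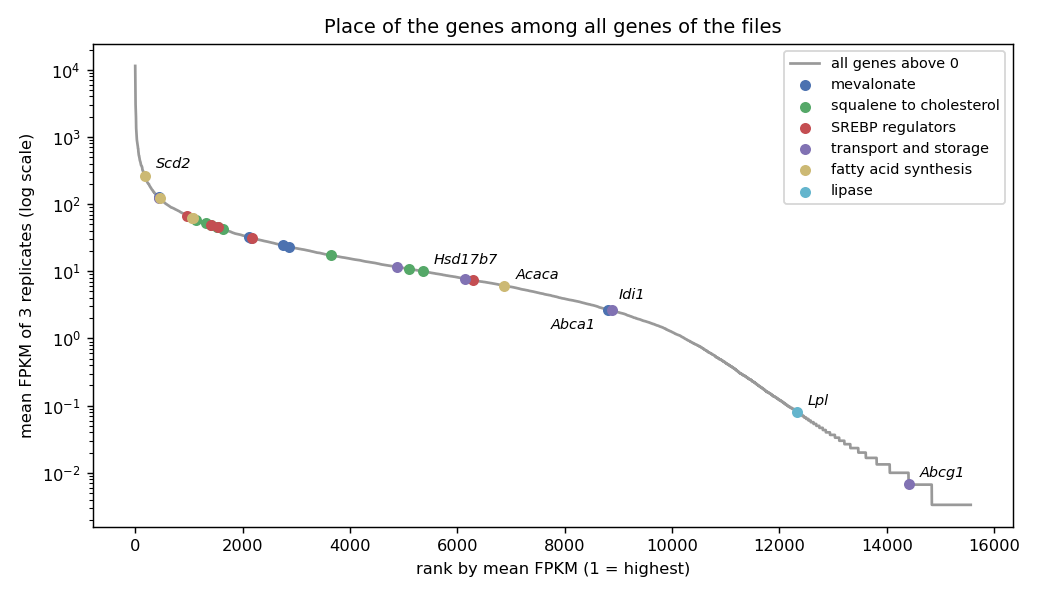
The line gives the mean FPKM (log axis) of every gene above 0 by rank, with rank 1 the highest, and the points are the 31 genes coloured by role. *Scd2* stands at rank 182, *Hsd17b7* at 5353, *Acaca* at 6878, *Idi1* at 8803, *Abca1* at 8878, *Lpl* at 12331 and *Abcg1* at 14404.

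The genes of the SREBP switch were all expressed, with a median of 44.9 ± 8.34 FPKM (SD of the medians of 3 replicates). Their SD between libraries was 16.9% (*Insig2*) to 24.8% (*Scap*) of the mean. *Srebf2* (ENSMUSG00000022463), whose product acts mainly on cholesterol genes, was at 71.59, 79.61 and 51.68 FPKM. *Srebf1* (ENSMUSG00000020538), of whose products SREBP-1c acts mainly on fatty acid genes, was at 45.67, 52.81 and 36.07 FPKM. Replicate 3 was the highest and replicate 4 the lowest for both genes. Levels here are per gene and do not separate the 14 annotated transcripts of *Srebf1*. *Srebf2* was the higher of the pair in all 3, by 1.57, 1.51 and 1.43 times, with a mean log2 ratio of 0.59 ± 0.065 (SD, n = 3), although the ranges of the 2 genes across replicates overlap. *Scap*, the escort, was at 50.07, 60.38 and 36.18 FPKM, and exons of *5830462I19Rik* on the opposite strand overlap 18.9% of its exon bases. The proteases that release SREBP were at 27.38 to 29.01 FPKM for *Mbtps1* and 3.01 to 4.39 FPKM for *Mbtps2*.

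The INSIG genes moved the other way between libraries. *Insig1*, which SREBP itself activates, was at 31.13, 25.62 and 37.78 FPKM, and *Insig2* at 7.08, 6.34 and 8.78 FPKM. For both, replicate 4 was the highest and replicate 3 the lowest. Their own ratio was steady, with *Insig1* higher by 4.4, 4.04 and 4.3 times and a mean log2 ratio of 2.08 ± 0.06 (SD, n = 3). The ratio of *Insig1* to *Scap* was 0.62, 0.42 and 1.04 in replicates 1, 3 and 4, so that their order changed in replicate 4. This pair was chosen after its values were seen.

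The genes of cholesterol transport and storage ranged from 125.2 FPKM to the floor. *Apoe*, the lipoprotein that carries cholesterol out of many cells, was at 125.94, 140.77 and 108.98 FPKM, a mean of 125.2 ± 15.9 (SD, n = 3) and rank 440 of 22698. *Apoe*, *Fdps* and *Scd1* had means of 122.2 to 125.6 FPKM, and neighbours in that order did not differ beyond their spread. *Soat1*, which esterifies cholesterol for storage, was at 11.34, 11.5 and 11.76 FPKM. Its paralog *Soat2* was at 0.02, 0.01 and 0.01 FPKM, at or below the level of 3 reads in the shallowest library, so no fold is given. *Stard4*, a carrier of free cholesterol in the cytosol, was at 7.91, 6.64 and 8.74 FPKM. *Abca1*, the pump that loads cholesterol onto apolipoprotein A-I, was at 2.9, 1.98 and 2.94 FPKM, with replicate 3 the lowest.

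*Abcg1*, the pump that loads high density lipoprotein, was listed at 0.01, 0 and 0.01 FPKM, an estimated 2, 0 and 3 reads, so that expression was not detectable above the floor at this depth. *Lpl*, the lipase that frees fatty acids from lipoproteins, was at 0.07, 0.07 and 0.1 FPKM, an estimated 26, 22 and 45 reads, above the floor in each library. Both genes are abundant in macrophages, and *Lpl* in adipocytes, whose marker sums are given above. *Nr1h2* and *Nr1h3* encode the LXR receptors that turn on *Abca1* and *Abcg1* when sterols are plentiful. *Nr1h2* was at 67.19, 83.87 and 52.41 FPKM, and *Nr1h3* was at 0.07, 0.04 and 0.05 FPKM. *Lipa*, the acid lipase of the lysosome, was at 157.9 to 171.4 FPKM, and *Scarb1*, a receptor for high density lipoprotein, at 60.71 to 85.67 FPKM.

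Ordered by mean FPKM, 13 of the 30 pairs of neighbours kept their order in all 3 replicates with a gap above their joint SD, and 17 did not. The gaps were clear on either side of the 3 genes near 125 FPKM, with *Scd2* above and *Srebf2* at 67.6 FPKM below. In the middle, *Ebp*, *Scap*, *Sqle*, *Nsdhl*, *Cyp51*, *Srebf1* and *Dhcr7*, from 51.9 to 42.5 FPKM, could not be ordered against their neighbours within this group, while *Fdft1* lay above *Ebp* and *Mvk* below *Dhcr7*. At the lower end *Idi1* and *Abca1* could not be told apart, and *Acaca* lay above both.

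For most of these genes, the spread between replicates was larger than counting error. For the 29 genes at or above 1 FPKM in every replicate, the estimated reads ran from 265 (*Idi1*, replicate 3) to 93701 (*Scd2*, replicate 4), which gives a counting error of 0.35% to 4.75% of the mean. The SD between replicates was 1.04% to 30.7% of the mean, with a median of 9.33% against 11.4% for all 10011 genes at this level. It was above the counting error for 29 of 29 genes and at least 2 times as large for 26. For *Lss* (1.04% against 0.98%) and *Soat1* (1.84% against 1.8%) the values were nearly equal. With 3 replicates such a small excess cannot be told from counting error. The same count over all genes is not given here, so it is not read as a trait of these genes.

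The differences between libraries went with the base composition of the genes. Replicates 3 and 4 stood farthest apart, and replicate 1 lay between them for 24 of the 29 genes. The same count over all genes is not given here. Over all 10011 genes the SD of the log2 ratios was also largest for replicates 4 and 3. It was 0.46, against 0.23 for replicates 1 and 3 and 0.27 for replicates 4 and 1. At least 1.5-fold higher in replicate 4 was 1 gene of 29, *Idi1*, against 12.2% of the 10011 genes, and 2 were at least 1.5-fold higher in replicate 3, *Srebf2* and *Scap*, against 6.36%. With each library scaled to the same sum of FPKM, which moves the median log2 ratio of all genes by 0.13, the counts became 4 and 1. The log2 ratio of replicate 4 to 3 was 0.87 for *Idi1*, 0.57 for *Abca1* and 0.56 for *Insig1*, whose joined exons hold 41.5%, 47.6% and 47.8% G and C. It was -0.74 for *Scap*, -0.62 for *Srebf2* and -0.58 for *Mvk*, with 59%, 57.5% and 56% G and C. Spearman's rho of this ratio with GC content was -0.83 across the 29 genes and -0.78 across 10007 genes, all read from the same 2 libraries and so no independent replicates. When the median of genes of like GC content was subtracted, 0 of 29 were past 1.5-fold, and the SD of the log2 ratios fell from 0.4 to 0.22 for the 29 genes and from 0.46 to 0.3 for all genes. *Abca1* at 0.45 was then the highest and *Ebp* at -0.45 the lowest. Of the SREBP switch, *Srebf1*, *Srebf2* and *Scap*, with 57.5% to 59% G and C, were lowest in replicate 4, and *Insig1* and *Insig2*, with 47.8% and 46.2%, were highest there. With the trend of GC content subtracted, the log2 ratio was -0.29 for *Scap*, -0.23 for *Srebf2* and -0.10 for *Srebf1*. It was 0.45 for *Insig1* and 0.24 for *Insig2*, and 0.33 for *Idi1*.

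**Figure D4:**
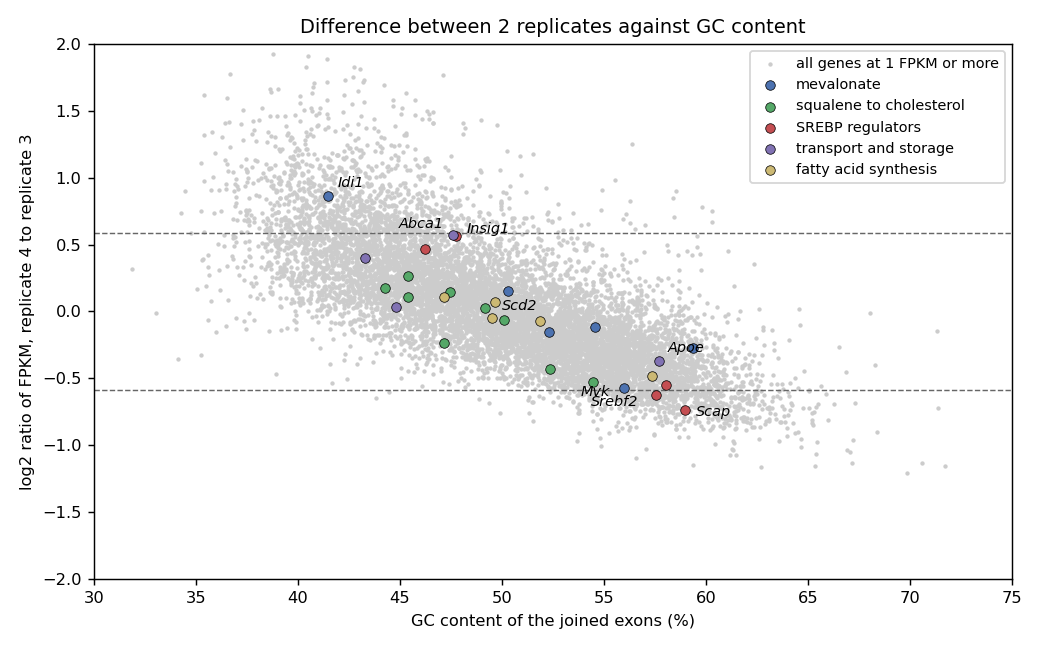
The x axis is the GC content of the joined exons in percent and the y axis the log2 ratio of FPKM of replicate 4 to replicate 3, with genes at or above 1 FPKM in every replicate in grey (4 lie outside the axes) and the 29 genes of the pathway in colour. The dashed lines mark 1.5-fold. The genes run from *Idi1* at 41.5% and 0.87 down to *Scap* at 59% and -0.74.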

How the data were processed

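Stranded mRNA libraries of 3 melan-a replicates were sequenced. According to the study's methods and processing notes, the authors trimmed the 10 5'-most bases, aligned reads to mm9 with STAR 2.3.0e, removed rRNA reads and counted with HTSeq 0.5.3p3 on Ensembl release 67. The authors deposited FPKM values for each gene and replicate, with TMM scaling between libraries. The length used for FPKM is not given in the sources used here.

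Symbols, lengths and positions came from an annotation of Ensembl release 65 on the same build (NCBIM37), which held 22324 of 22698 genes. Library sizes, as scaled by the authors, were estimated from low values of genes with 1 transcript. These fell a mean of 0.0515, 0.0536 and 0.061 reads from whole numbers in replicates 1, 3 and 4, over 153, 179 and 94 genes. Reads per gene are FPKM times joined exon length and library size. This rests on the assumption that the authors divided by the joined exons. Ratios used a pseudocount of 0.01 FPKM, and GC trends were removed as medians of 20 bins. Copies are exact matches of 50 bases on either strand of NCBIM37. Means are given with SD over replicates, and ratios of paralogs with an exact paired permutation test. The p-values show only that the ratio had the same sign in all 3 libraries and do not measure its spread. Differences between these libraries may be technical. No measured value entered the list of genes, but the genes and lists were chosen with earlier results of these data known. The rule for named genes was all members, and other pathway genes where a step or a paralog is described. Alternatives were other replicates, scalings, summaries, filters, folds and pseudocounts. The estimates of depth and of the GC trend were tested on simulated data. Software was numpy 2.4.6, numba 0.67.0, scipy 1.17.1, pandas 2.3.3 and matplotlib 3.10.9 under Python 3.11.15.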

Additional observations from a re-analysis of the deposited data

How the results depend on the processing

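Leaving out each replicate moved the median of the 31 means between 32.2 and 35.5 FPKM and that of the fatty acid genes between 60.8 and 69.2 FPKM. With the mean of log2(FPKM + 1) in place of the median, the levels were 25 FPKM for the mevalonate genes, 30.9 for the sterol genes and 32.6 for the regulators. With only genes above 0 in every replicate ranked, 9 of the 31 genes were in the highest 10%. Between replicates, 4 genes were higher in replicate 4 and 1 in replicate 3 after scaling to the same sum, with a median log2 ratio of 0.0898 in place of -0.05. At a ratio of 5 to 4 the counts were 5 and 8, and at 2-fold 0 and 0. With GC content subtracted, and for the ratios of replicates 1 to 3 and 4 to 1, they were also 0 and 0, with medians of -0.0109 and -0.0033 for these pairs. The causes of these shifts were not tested beyond the settings themselves. Among genes of at least 5 FPKM, 0 were higher in replicate 4. The 6 log2 ratios of paralogs kept their direction under every alternative run, but not their size. Each had the same sign in all 3 replicates, so only the use of estimated reads could have reversed a direction. With a pseudocount of 1 FPKM, that of *Acaca* to *Acacb* was 2.18 in place of 3.42, and those over *Abcg1* and *Soat2*, which rest on the pseudocount, fell too. On estimated reads, which are not per length, that of *Scd2* to *Scd1* was 1.29 in place of 1.12, of *Srebf2* to *Srebf1* 0.41 in place of 0.59 and of *Insig1* to *Insig2* 1.69 in place of 2.08. All 155 alternative values of single genes moved by less than the spread between replicates. With 3 replicates this is fixed in advance when 1 is left out or their median is taken. Only the scaling to the same sum could have come out otherwise. No paired analysis was possible because the 3 libraries form a single group, with no other group to pair them with. The paired test of paralogs sets 2 genes of the same library against each other. Depth limits *Abcg1* and *Soat2*, which are at the level of a few reads.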
